A study of Mus musculus with 8 samples.

Results

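The genes described here are 10 segments of the mouse immunoglobulin light chain loci, taken from a list of names that was drawn up with earlier results of these data known: the kappa constant gene Igkc, the kappa joining genes Igkj1, Igkj2, Igkj4 and Igkj5, the lambda variable genes Iglv1 and Iglv2, and the lambda constant genes Iglc1, Iglc2 and Iglc3. They are 10 of the 27179 genes in the count table, and each of them passed the expression filter. RNA was sequenced from B cell precursors sorted from bone marrow, in 4 groups of 2 libraries each. Early large pre-B cells (early LPre, sorted with a gate that included Lineage- B220+ sIgM- CD43+ FSChi CD2-) were compared with small pre-B cells (sPre, gate including Lineage- B220+ sIgM- CD43lo FSClo CD25+ CD2+). All mice carried Upf1 Flox/Flox and Igh B1-8hi/+, a heavy chain allele rearranged in advance. The cKO mice were also Mb1 Cre/+, which places Cre in the Cd79a gene and deletes part of Upf1, the helicase of nonsense-mediated mRNA decay, in B-lineage cells, while the Ctrl mice were Mb1 +/+. The mice were age-matched adults of both sexes on a C57BL/6 background. The questions addressed were how these genes differed between the stages, between the genotypes, and in the balance of kappa against lambda.

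A light chain gene is assembled in pre-B cells when RAG1 and RAG2 join a V segment to a J segment, after which the VJ exon is spliced to a constant (C) exon. Kappa segments are usually rearranged before lambda segments, and kappa antibodies dominate in the mouse. Unrearranged J-C and V segments are also transcribed, so a count of a J, V or C gene mixes germline and rearranged transcripts, and V genes with J or C genes of the same transcript can share read pairs. The B1-8 heavy chain is known for binding nitrophenyl haptens when it is paired with a lambda light chain.

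The J segments are printed because the J counts below rest on so few bases. Each sequence is the sense strand from GENCODE M21 (build GRCm38, the same as mm10). The capitals mark TTCGGNNNNGGNAC, the stretch that encodes the phenylalanine-glycine core of a light chain J segment, in the 4 kappa J members and in the 3 lambda J genes that lie beside Iglc1, Iglc2 and Iglc3.
Igkj1 (chr6:70722562-70722599, plus strand): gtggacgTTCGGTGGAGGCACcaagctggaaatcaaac
Igkj2 (chr6:70722916-70722954, plus strand): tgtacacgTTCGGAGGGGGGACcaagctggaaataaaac
Igkj4 (chr6:70723548-70723585, plus strand): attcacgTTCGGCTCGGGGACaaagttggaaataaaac
Igkj5 (chr6:70723886-70723923, plus strand): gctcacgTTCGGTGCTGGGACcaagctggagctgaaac
Iglj1 (chr16:19063225-19063262, minus strand): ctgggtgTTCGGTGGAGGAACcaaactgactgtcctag
Iglj2 (chr16:19200198-19200235, minus strand): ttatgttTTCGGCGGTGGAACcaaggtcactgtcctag
Iglj3 (chr16:19067041-19067078, minus strand): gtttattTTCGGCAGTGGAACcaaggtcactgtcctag
The motif was searched on the sense strand of the annotated J segments and was found in 8 of the 14 immunoglobulin J segments (57.1%) and in 19 of all 84 immunoglobulin and T cell receptor J segments (22.6%). Among the 4 kappa J members the closest pair was Igkj1 and Igkj2, identical at 32 of 38 aligned bases (84.2%), and the longest run shared by any pair was 14 bases.

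The lambda genes hold near-identical copies, which limits how their counts can be told apart. The first 60 coding bases of the constant exons are printed to show how little separates Iglc2 from Iglc3. Capitals in Iglc2 and Iglc3 mark the 4 bases at which these differ from each other, and capitals in Iglc1 mark the 12 bases at which it differs from Iglc2.
Iglc2 (chr16:19198794-19198853, minus strand): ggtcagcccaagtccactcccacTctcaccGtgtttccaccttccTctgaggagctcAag
Iglc3 (chr16:19065622-19065681, minus strand): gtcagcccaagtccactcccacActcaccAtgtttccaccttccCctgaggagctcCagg
Iglc1 (chr16:19062012-19062071, minus strand): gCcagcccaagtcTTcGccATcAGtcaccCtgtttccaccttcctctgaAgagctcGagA
Over their coding bases Iglc2 and Iglc3 differed at 11 of 314 (96.5% identity), and the longest identical run was 79 bases. Iglv1 and Iglv2 differed at 11 of 351 (96.9% identity), with an identical run of 104 bases. Iglc1 was 74.8% identical to Iglc2 and 75.4% to Iglc3, and Igkc was at most 59.1% identical to a lambda constant gene. How the counting treated reads that fit both copies of a pair is not given in the sources used here, so the split between Iglc2 and Iglc3 and between Iglv1 and Iglv2 is uncertain.

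Library totals lay between 68516857 and 160426338 counts. Levels are given as CPM, a library's counts relative to its size after scaling by edgeR's TMM factors, and 3 counts, taken as the smallest level that could be shown, stood for 0.0217 to 0.0426 CPM (counting error only). The labels call the libraries of a group replicates without naming the mice, and the study's methods describe the points of its graphs as biological replicates. The p-values measure the spread between these libraries. The sorted stages carried their markers: the summed level of Cd2, Il2ra, Rag1 and Rag2 was 539.9 and 530.0 CPM in Ctrl and 104 and 156 CPM in cKO early LPre libraries, and 4317 and 3748 CPM in Ctrl and 2258 and 2417 CPM in cKO sPre libraries. It was thus higher in sPre cells of both genotypes and lower in cKO than in Ctrl cells of both stages. Il2ra, Rag1 and Rag2 were called lower in cKO early LPre cells and Rag1 in cKO sPre cells, beside 16.9% and 14.9% of all genes tested. Rag1 held most of the sum in sPre cells, with 3508 and 2964 CPM in Ctrl and 1497 and 1612 CPM in cKO libraries. Il2ra stood at 476 and 479 CPM in Ctrl and 481 and 532 CPM in cKO sPre libraries. Cd2, Il2ra and Rag2 were not called in sPre cells. The part of these marker differences in the values of the light chain genes was not tested. Upf1 had 244 and 258 CPM in cKO against 237 and 213 CPM in Ctrl early LPre libraries, and 282 and 293 against 186 and 198 CPM in sPre, and since a gene-level count covers exons outside the deleted part, it does not check the label. Cd79a, the gene that carries Cre, was at 160.0 to 187.6 CPM in the cKO and 543 to 640.5 CPM in the Ctrl early LPre libraries, and at 325 to 405 against 1478 to 1602 CPM in sPre.

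The light chain genes spanned a wide range of levels, and lambda RNA was scarce in early LPre cells. In Ctrl early LPre cells Igkc stood at 150.0 and 154 CPM, while the lambda members lay between 0.0940 and 1.06 CPM in both libraries. In Ctrl sPre cells Igkc stood at 619.7 and 724 CPM and the lambda members between 72.7 and 325 CPM. Compared per kilobase of coding sequence, Igkc was the highest of the 6 V and C members in each group, with 476 ± 9.79 CPM per kb in Ctrl early LPre and 2099.6 ± 231 CPM per kb in Ctrl sPre cells (mean ± SD, n = 2). The J members are 38 or 39 bases long, shorter than a read pair's fragment, so their levels per length were compared with each other only.

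**Figure D1:**
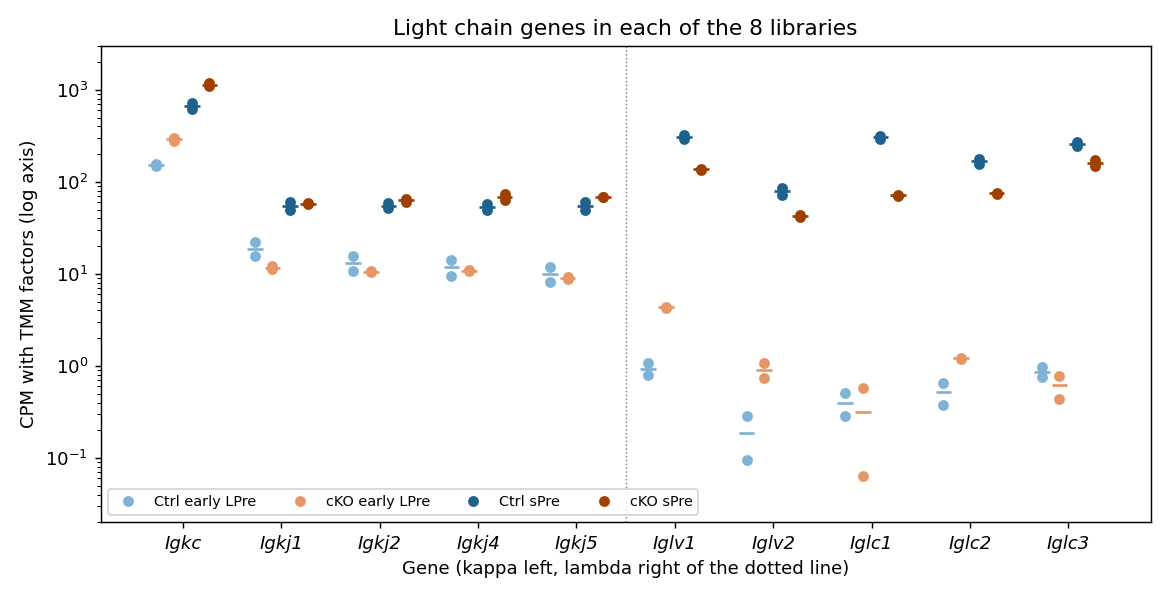
CPM of the 10 genes (log axis) in each library, with a point per library and a short line at the mean of each group of 2. The 5 lambda genes lie under 5 CPM in the early LPre libraries and above 40 CPM in the sPre libraries, and in sPre each lambda gene is lower and Igkc higher in the cKO than in the Ctrl libraries.

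The lambda genes were also ordered by level per kilobase in sPre cells. In Ctrl sPre cells Iglc1 stood at 959 ± 52.9 CPM per kb, Iglv1 at 877 ± 69.0 and Iglc3 at 825 ± 69.2, and these neighbours did not differ beyond their spread. They were followed by Iglc2 at 529 ± 52.4 and Iglv2 at 227 ± 28.4 CPM per kb. In cKO sPre cells Iglc3 came first at 517 ± 53.4 CPM per kb, followed by Iglv1 at 389 ± 1.85, Iglc2 at 238 ± 5.27, Iglc1 at 224 ± 3.90 and Iglv2 at 123 ± 4.11 (mean ± SD, n = 2 in each case). The places of Iglc2 and Iglc3 rest on the uncertain split between them.

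Between the stages, each of the 10 genes was higher in sPre than in early LPre cells, in Ctrl and in cKO mice. In both genotypes 10 of 10 members were called higher (edgeR quasi-likelihood test, adjusted p under 0.05), where 29.1% of the 17700 genes tested were called higher and 31.1% lower in Ctrl, and 31.6% higher and 31.1% lower in cKO. The median log2 fold change in Ctrl was 2.14 over the 5 kappa genes and 8.41 over the 5 lambda genes, beside 0.02 over all genes tested. In cKO these medians were 2.58 and 5.96, beside 0.05. The same 10 calls per genotype were made under each alternative tried. With near-identical copies summed, Iglv1 and Iglv2 shared a value, as did Iglc2 and Iglc3, so the calls there were not separate. In bulk RNA, fewer cells that transcribe a gene and less RNA per cell cannot be told apart.

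The kappa genes rose between the stages in both genotypes. In Ctrl cells the log2 fold change of sPre over early LPre was 1.55 ± 0.16 for Igkj1, which lies nearest the V segments, 2.06 ± 0.17 for Igkj2, 2.18 ± 0.18 for Igkj4 and 2.45 ± 0.19 for Igkj5 (± SE). In cKO cells it was 2.31 ± 0.17, 2.58 ± 0.17, 2.67 ± 0.19 and 2.93 ± 0.19 in the same order. Igkj3, which is not among the 10 and lies between Igkj2 and Igkj4, rose by 1.43 ± 0.23 in Ctrl and 2.18 ± 0.23 in cKO cells, so the values did not follow the order of the J segments along the locus. Igkc rose by 2.14 ± 0.13 in Ctrl (adjusted p = 3.28e-06, edgeR) and by 1.98 ± 0.13 in cKO cells (adjusted p = 4.69e-06, edgeR). The differences between J genes within a genotype were not tested.

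The lambda genes rose far more than the kappa genes in Ctrl cells. Iglc1 went from 0.282 and 0.513 CPM in the Ctrl early LPre libraries (39 and 40 counts) to 316 and 292 CPM in the Ctrl sPre libraries, a log2 fold change of 9.66 ± 0.54 (adjusted p = 2.45e-06, edgeR). Iglc3, the constant gene next to it, went from 0.760 and 0.974 to 244 and 274 CPM, a log2 fold change of 8.25 ± 0.25 (adjusted p = 4.76e-07, edgeR). Since the early LPre values rest on few counts, these folds are set largely by the low group. In cKO cells the log2 fold changes of the lambda genes ran from 4.98 ± 0.13 for Iglv1 to 8.02 ± 0.25 for Iglc3. With Iglc2 and Iglc3 summed, the pair rose by 7.02 in cKO cells, so the place of Iglc3 rests on the uncertain split. The value of Iglc1 there, 7.73 ± 0.51, depended on which early LPre library was kept: it was 6.96 without cKO early LPre replicate 1 and 10.08 without replicate 2, the ends of its range over 16 alternatives.

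**Figure D2:**
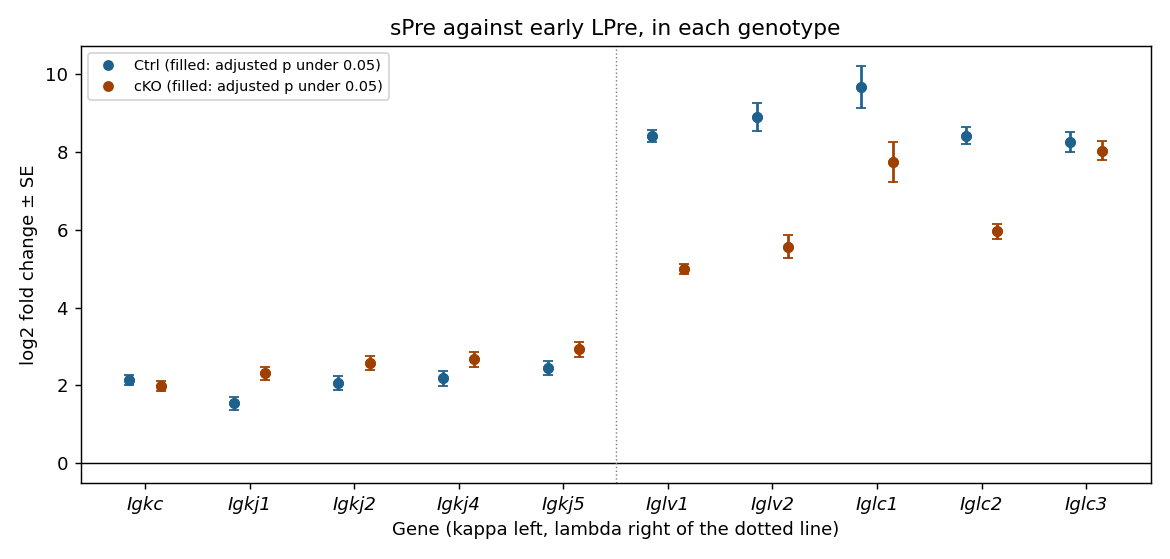
log2 fold change of sPre against early LPre cells for each gene, with the standard error of the fit as bars, in Ctrl and in cKO. Kappa genes lie between 1.55 and 2.93 in both genotypes, lambda genes between 8.25 and 9.66 in Ctrl and between 4.98 and 8.02 in cKO. The highest cKO value is that of Iglc3, and it was 7.02 when summed with Iglc2 (not drawn).

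In sPre cells, cKO against Ctrl, kappa and lambda constant RNA moved in opposite directions. Of the 10 genes, Igkc was called higher and the 5 lambda genes were called lower, while the 4 kappa J genes were not called. In this comparison 19.8% of all genes tested were called higher and 14.9% lower. The median log2 fold change was 0.32 over the kappa genes and -1.15 over the lambda genes, beside 0.01 over all genes.

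Igkc, the constant exon of every kappa chain, stood at 619.7 and 724 CPM in the Ctrl and at 1106 and 1180.2 CPM in the cKO sPre libraries. Both cKO libraries lay above both Ctrl libraries, and the log2 fold change was 0.77 ± 0.12 (adjusted p = 0.00196, edgeR), a 1.70-fold difference. The J genes that are joined to it showed smaller differences. Igkj1 stood at 49.4 and 60.5 CPM in Ctrl and 59.1 and 57.0 CPM in cKO, with both cKO libraries inside the Ctrl range (log2 fold change 0.08 ± 0.16, adjusted p = 0.739, edgeR). Igkj2, Igkj4 and Igkj5 had log2 fold changes of 0.19 ± 0.16, 0.37 ± 0.17 and 0.32 ± 0.18, with adjusted p of 0.394, 0.132 and 0.192 in that order (edgeR). Their cKO libraries lay above both Ctrl libraries in each case, a separation whose share over all genes was not counted. None of them passed the test. Igkj4 passed it in 3 of 16 alternatives.

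Iglc1, the constant gene at the end of the lambda locus, showed the largest difference of the 10 in sPre cells. It stood at 316 and 292 CPM in the Ctrl libraries and at 72.0 and 70.2 CPM in the cKO libraries, a log2 fold change of -2.10 ± 0.36 (adjusted p = 0.00272, edgeR), or 4.28-fold lower. Iglc2, the constant gene of the other lambda cluster, stood at 178 and 155 CPM in Ctrl and 73.8 and 76.1 CPM in cKO, and fell by 1.15 ± 0.15 on the log2 scale (adjusted p = 0.000673, edgeR). The groups did not overlap for either gene, and the share of all genes that separate in this way was not counted. Iglc3 stood at 244 and 274 CPM in Ctrl and 174 and 150.3 CPM in cKO and fell by 0.68 ± 0.17 on the log2 scale (adjusted p = 0.0165, edgeR).

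The lambda V genes were lower with the constant genes. Iglv1, which is joined to the J segments of Iglc3 and Iglc1, stood at 325 and 291 CPM in the Ctrl and 137 and 136 CPM in the cKO sPre libraries, and fell by 1.17 ± 0.11 on the log2 scale (adjusted p = 0.000155, edgeR). Iglv2, which is mostly joined to the J segment of Iglc2, stood at 86.8 and 72.7 CPM in Ctrl and 44.0 and 42.0 CPM in cKO, and fell by 0.89 ± 0.23 (adjusted p = 0.0182, edgeR). The lower calls of Iglv2 and Iglc3 depended on single libraries. Iglv2 was no longer called without Ctrl sPre replicate 1 (adjusted p = 0.0832), without cKO sPre replicate 1 (0.0870) or without cKO sPre replicate 2 (0.0927), and Iglc3 was not called without Ctrl sPre replicate 2 (0.0569) or cKO sPre replicate 2 (0.0946), all by edgeR. Over 16 alternatives the adjusted p ran from 5.8e-06 to 0.0927 for Iglv2 and from 0.000163 to 0.0946 for Iglc3, with the same direction in each.

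The lambda J genes, which are not among the 10, gave values close to those of the constant gene beside them in sPre cells. In sPre cells, cKO against Ctrl, the log2 fold change was -2.28 ± 0.23 for Iglj1 beside -2.10 for Iglc1, -1.29 ± 0.16 for Iglj2 beside -1.15 for Iglc2, and -0.91 ± 0.17 for Iglj3 beside -0.68 for Iglc3. The adjusted p was 0.000225, 0.000636 and 0.00435 in that order (edgeR). In early LPre cells, cKO against Ctrl, the log2 fold change was -0.76 ± 0.52 for Iglj1, 0.20 ± 0.31 for Iglj2 and -0.09 ± 0.34 for Iglj3. None of these passed the test (adjusted p = 0.296, 0.659 and 0.866, edgeR), while Iglc2 was called higher there. Iglv3, the remaining lambda V gene, differed from its neighbours: it stood at 93.9 and 93.0 CPM in Ctrl and 102 and 91.6 CPM in cKO sPre cells (log2 fold change 0.05 ± 0.26, adjusted p = 0.896, edgeR). Igkj3, the kappa J segment that lacks the motif, stood at 23.8 and 29.9 CPM in Ctrl and 35.0 and 38.5 CPM in cKO and did not pass the test (log2 fold change 0.45 ± 0.22, adjusted p = 0.150, edgeR).

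In early LPre cells, cKO against Ctrl, Igkc and part of the lambda genes were higher, at low levels for lambda. Igkc, Iglv1, Iglv2 and Iglc2 were called higher and Igkj1 lower, while 5 of the 10 were not called. Of all genes tested, 14.5% were called higher and 16.9% lower. The median log2 fold change was -0.16 over the kappa genes and 1.30 over the lambda genes, beside -0.06 over all genes.

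**Figure D3:**
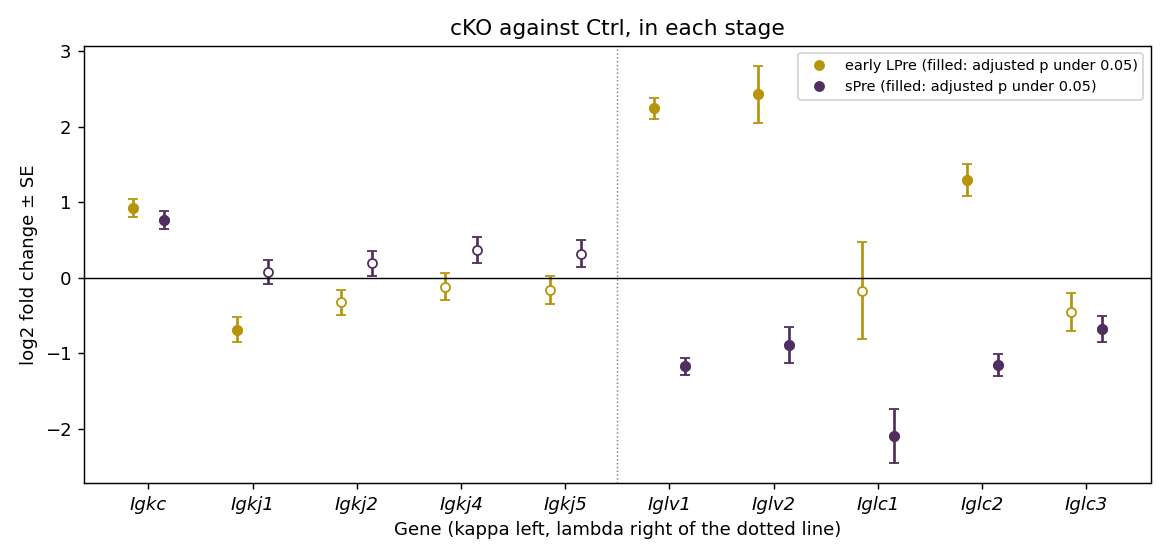
log2 fold change of cKO against Ctrl for each gene, with the standard error of the fit as bars, in early LPre and in sPre cells. Filled points passed the test: Igkc lies above 0 in both stages, while Iglv1, Iglv2 and Iglc2 lie above 0 in early LPre and below 0 in sPre cells.

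Igkc stood at 150.0 and 154 CPM in the Ctrl and 298 and 280.2 CPM in the cKO early LPre libraries, a log2 fold change of 0.93 ± 0.12 (adjusted p = 0.000967, edgeR). The groups were far apart relative to their spread. Igkj1 went the other way, with 15.8 and 21.9 CPM in Ctrl and 11.2 and 12.2 CPM in cKO, and fell by 0.69 ± 0.16 on the log2 scale (adjusted p = 0.0135, edgeR). This call was lost without Ctrl early LPre replicate 2 (adjusted p = 0.0831) or cKO early LPre replicate 1 (0.0846), and its adjusted p ran from 0.000687 to 0.0846 over 16 alternatives (edgeR and DESeq2). The other J members had log2 fold changes between -0.32 and -0.12. Those of Igkj4 and Igkj5 turned to 0.25 and 0.20 without Ctrl early LPre replicate 2. With all libraries none of these passed the test. Igkj2 passed it in 1 of 16 alternatives, without Ctrl replicate 1 (-0.54, adjusted p = 0.0158, edgeR), and was at 0.026 without Ctrl replicate 2 (adjusted p = 0.889, range 0.0158 to 0.889).

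Iglv1 stood at 0.796 and 1.06 CPM in the Ctrl and 4.36 and 4.26 CPM in the cKO early LPre libraries (110 and 83 against 475 and 554 counts), a log2 fold change of 2.24 ± 0.14 (adjusted p = 3.79e-05, edgeR). Iglv2 stood at 0.0940 and 0.282 CPM in Ctrl and 0.744 and 1.06 CPM in cKO, on 13 to 138 counts, a log2 fold change of 2.43 ± 0.38 (adjusted p = 0.00193, edgeR). This value of Iglv2 moved with the Ctrl libraries, to 1.72 without Ctrl early LPre replicate 1 and 3.30 without replicate 2, and it passed the test in each of 16 alternatives. For both genes each cKO library lay above each Ctrl library, a separation that was not counted over all genes. Iglv3 was higher as well, by 1.73 ± 0.32 (adjusted p = 0.00445, edgeR), so that the 3 lambda V genes of the table were called higher in cKO early LPre cells.

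The lambda constant genes did not share one direction in early LPre cells. Iglc2 stood at 0.376 and 0.654 CPM in Ctrl and 1.19 and 1.22 CPM in cKO (log2 fold change 1.30 ± 0.21, adjusted p = 0.0026, edgeR), and Iglc3 at 0.760 and 0.974 CPM in Ctrl and 0.441 and 0.785 CPM in cKO (-0.45 ± 0.26, adjusted p = 0.213, edgeR). Iglc3 passed the test in 1 of 16 alternatives, without cKO early LPre replicate 2 (-0.94, adjusted p = 0.0313, edgeR; range 0.0313 to 0.756). When the counts of this near-identical pair were summed, the log2 fold change was 0.43 and no longer passed the test (adjusted p = 0.101, edgeR; range over 16 alternatives 6.97e-08 to 0.101 for Iglc2). Iglc1 stood at 0.282 and 0.513 CPM in Ctrl and at 0.0643 and 0.570 CPM in cKO, that is 7 and 74 counts in the cKO libraries. The direction of Iglc1 depended on which of these 2 libraries was kept: its log2 fold change was -0.17 ± 0.64 with both, 0.61 without cKO early LPre replicate 1 and -2.52 without replicate 2 (adjusted p = 0.871, 0.199 and 0.0113, edgeR; range over 16 alternatives 0.0113 to 0.909).

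The genotype difference itself was compared between the stages with the interaction of stage and genotype. It was called for Iglv1 (-3.42 ± 0.18), Iglv2 (-3.32 ± 0.44) and Iglc2 (-2.45 ± 0.26), each as lower in sPre than in early LPre cells, with adjusted p of 0.000401, 0.00963 and 0.00387 in that order (edgeR). The value of Iglv2 was -2.65 without Ctrl early LPre replicate 1 and -4.23 without replicate 2, and it passed the test in each of 15 alternatives. The other 7 genes were not called, and of all genes tested 2.64% were called higher and 1.6% lower. Iglc1 had an interaction of -1.93 ± 0.73 (adjusted p = 0.182) and Igkj1 of 0.77 ± 0.23 (adjusted p = 0.100, edgeR). The value of Iglc1 turned to 0.42 without cKO early LPre replicate 2. Iglc1 passed the test in 2 of 15 alternatives and Igkj1 in 3 of 15, with adjusted p (edgeR and DESeq2) from 0.0175 to 0.759 and from 0.0251 to 0.274. For Igkc, which was higher in cKO cells of both stages, the interaction was -0.16 ± 0.17 (adjusted p = 0.668, edgeR). Summed with Iglc3, the interaction of Iglc2 was -1.27 and still passed the test (adjusted p = 0.0249, edgeR; range over 15 alternatives 1.35e-17 to 0.0249).

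Kappa was then set against lambda within each library, which removes the library's scaling. The counts of Iglc1, Iglc2 and Iglc3 together made up 54.4% and 49.9% of all light chain constant counts in the Ctrl sPre libraries (95% Wilson intervals 54.1 to 54.6 and 49.6 to 50.2) and 22.4% and 20.1% in the cKO sPre libraries (22.2 to 22.7 and 19.9 to 20.3). In early LPre cells the lambda share was 0.936% and 1.37% in Ctrl and 0.564% and 0.912% in cKO. The intervals cover counting error only. Lambda thus made up about as many constant gene counts as kappa in Ctrl sPre cells, a smaller share in cKO sPre cells, and a very small one in early LPre cells of both genotypes.

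**Figure D4:**
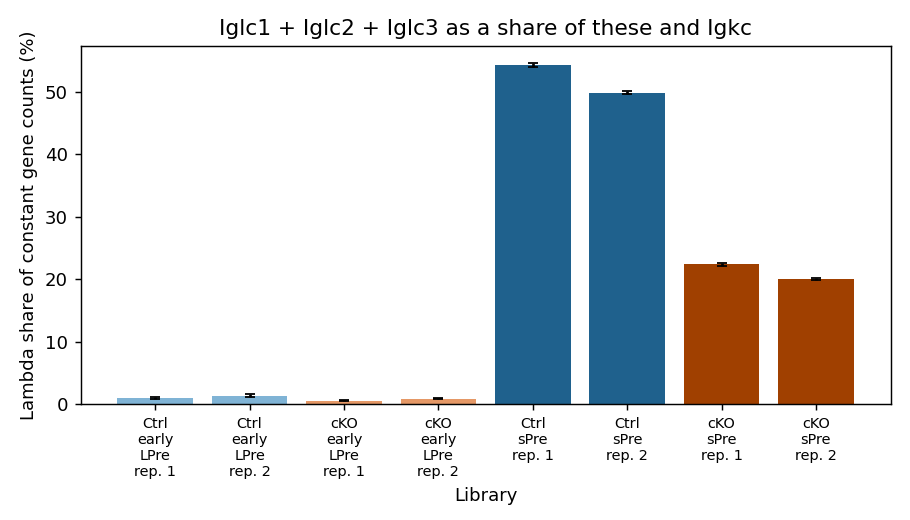
Counts of Iglc1, Iglc2 and Iglc3 as a percentage of these and Igkc together, a bar per library with its 95% Wilson interval. The Ctrl sPre libraries stand at 54.4% and 49.9%, the cKO sPre libraries at 22.4% and 20.1%, and the early LPre libraries at 1.37% or less.

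As a ratio of lambda constant to Igkc counts, sPre cells had 1.09 ± 0.14 in Ctrl and 0.270 ± 0.027 in cKO (mean ± SD, n = 2), a log2 difference of -2.01, or 4.04-fold lower in cKO. The exact permutation test of 2 against 2 libraries gave p = 0.333 (two-sided), the smallest it can give. The ratio was lower in cKO sPre cells with Iglc1 alone (log2 difference -2.87), with Iglc2 and Iglc3 (-1.62), with Iglv1 and Iglv2 in place of the constant genes (-1.88) and with the kappa J genes in place of Igkc (-1.49). In early LPre cells the log2 difference was -0.66, close to the spread of 0.63 between libraries, and it turned to 1.33 with the lambda V genes and to 0.60 with the kappa J genes. Over both stages the mean log2 difference of cKO minus Ctrl was -1.34 (exact permutation within stage over 36 arrangements, two-sided p = 0.0556, the smallest possible, and 0.0903 after Benjamini-Hochberg adjustment over 13 ratios). This mean depended on the genes used: it was -0.27 with the lambda V genes (exact permutation p = 0.611) and -0.45 with the kappa J genes (exact permutation p = 0.333). Between the stages the ratio was 95.2-fold higher in sPre than in early LPre cells of Ctrl mice and 37.3-fold higher in cKO mice (exact permutation p = 0.333 for each, the smallest possible). In cKO mice it was 8.71-fold higher with the lambda V genes and 24.0-fold higher with the kappa J genes in place of Igkc.

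Within lambda, the share of Iglc1 was lower in cKO sPre cells. Iglc1 held 42.8% and 40.5% of the lambda constant counts in the Ctrl sPre and 22.5% and 23.7% in the cKO sPre libraries. Iglc3 held 33.0% and 38.1% in Ctrl and 54.4% and 50.7% in cKO, while Iglc2 held between 21.5% and 25.7% in these 4 libraries. The ratio of Iglc1 to Iglc2 and Iglc3 was 0.714 ± 0.048 in Ctrl and 0.300 ± 0.014 in cKO sPre cells (exact permutation p = 0.333, the smallest possible with n = 2). The V genes had more counts than the C genes in cKO early LPre cells and fewer in the other groups: the ratio of Iglv1 and Iglv2 to the lambda constant genes was 0.628 and 0.629 in Ctrl and 3.02 and 2.07 in cKO, and between 0.504 and 0.600 in all sPre libraries. This ratio depends on how read pairs shared between V and C genes were counted, which is not given.

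Within kappa, the J genes had fewer counts for each count of Igkc in cKO cells. How read pairs shared between V, J and C genes were counted is not given, and the ratios below depend on it. The ratio of the 4 J members to Igkc was 0.294 and 0.413 in the Ctrl and 0.140 and 0.152 in the cKO early LPre libraries, and 0.322 and 0.327 against 0.241 and 0.212 in sPre. The mean log2 difference within stage was -0.89 (exact permutation over 36 arrangements, two-sided p = 0.0556, the smallest possible, 0.0903 after adjustment over 13 ratios). The summed counts of 103 kappa V genes for each count of Igkc moved the same way, with a mean ratio of 0.406 in Ctrl and 0.234 in cKO early LPre, and 0.829 and 0.582 in sPre cells.

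**Figure D5:**
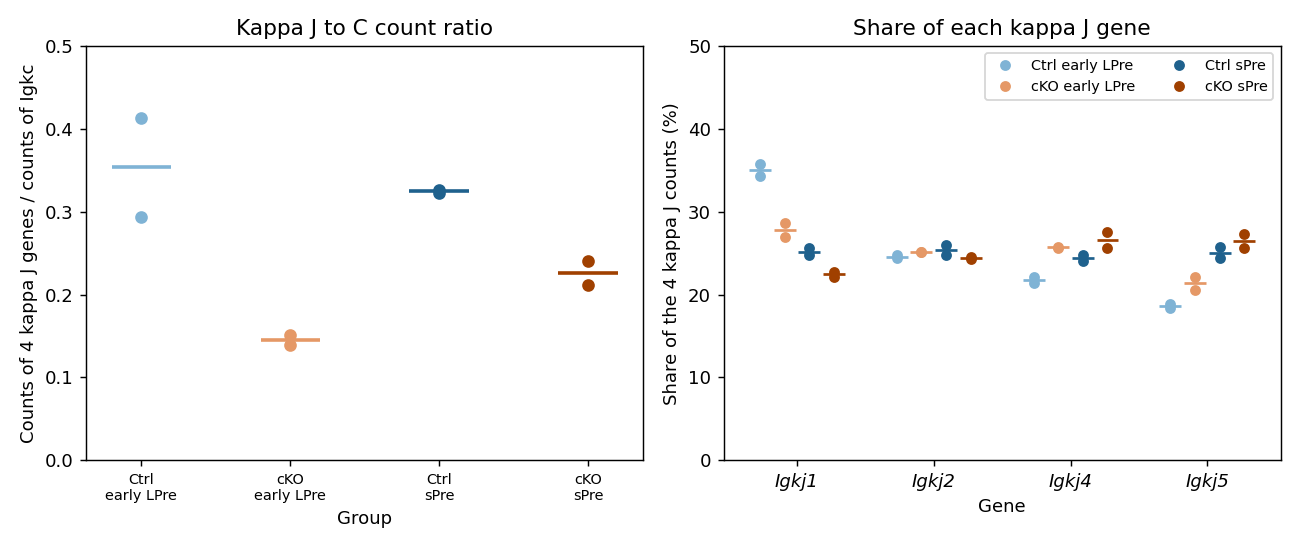
Left, counts of Igkj1, Igkj2, Igkj4 and Igkj5 divided by counts of Igkc, a point per library and a line at the group mean. Right, each J gene's percentage of the 4 J counts. The ratio is lower in cKO than in Ctrl in both stages, and the share of Igkj1 goes from 35.8% and 34.4% in Ctrl early LPre to 22.2% and 22.8% in cKO sPre libraries.

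The shares of the J genes in their summed counts were compared between the groups. Igkj1, the first J segment after the V genes, held 35.8% and 34.4% of the 4 J counts in Ctrl early LPre, 26.9% and 28.7% in cKO early LPre, 24.7% and 25.6% in Ctrl sPre and 22.2% and 22.8% in cKO sPre libraries. Igkj5, the last one, held 18.4% and 18.8%, 22.2% and 20.5%, 24.5% and 25.7%, and 25.7% and 27.3% in the same order of groups. Igkj4 held 21.7%, 25.7%, 24.4% and 26.6% on average in that order. The share of Igkj2 stayed between 24.3% and 26.0% in all 8 libraries. The ratio of Igkj1 to Igkj5 was lower in cKO than in Ctrl in both stages, with a mean log2 difference of -0.39 (exact permutation within stage, two-sided p = 0.0556, the smallest possible, 0.0903 after adjustment over 13 ratios).

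Other genes of light chain assembly were counted as lists. Of 19 regulators and recombinase genes that act on the light chain loci, 9 were called lower and 2 higher in cKO sPre cells. Of all genes tested, 14.9% were called lower and 19.8% higher there. The list was not split by whether a member promotes or opposes rearrangement, so its counts have no single sense. In cKO early LPre cells 13 of the 19 were called lower and 1 higher, beside 16.9% and 14.5% of all genes. Their median log2 fold changes were -0.32 and -0.53, beside 0.01 and -0.06 over all genes. Rag1, a subunit of the V(D)J recombinase, had a log2 fold change of -1.06 in sPre and -2.74 in early LPre cells (adjusted p = 0.00914 and 0.000148, edgeR), and Rag2, the other subunit, of -0.15 and -1.04 (adjusted p = 0.394 and 0.00068, edgeR). Irf4, a factor for light chain enhancers, fell by 0.68 and by 0.66 on the log2 scale (adjusted p = 0.0153 and 0.0195, edgeR), and its relative Irf8 had 0.42 and 0.38 (adjusted p = 0.0368 and 0.0589, edgeR). Lowest in adjusted p among the remaining ones in sPre were Spi1 (-0.83), Id3 (-1.12) and Tcf12 (-1.08). Between the stages 13 of the 19 were called higher and 1 lower in Ctrl, and 14 higher and 2 lower in cKO, beside 29.1% to 31.6% of all genes in each direction, and 3 had a higher interaction, beside 2.64% of all genes.

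The surrogate light chain, which pairs with the heavy chain before a light chain is made, went against the light chain genes between the stages. Vpreb1 and Igll1 stood at 225 and 138 CPM and at 338 and 229 CPM in the Ctrl early LPre libraries, and at 5.71 and 4.91 CPM and 6.28 and 5.76 CPM in the Ctrl sPre libraries. Of the 4 genes of this list, 3 were called lower and Vpreb3 higher in sPre cells of both genotypes, beside 31.1% lower and 29.1% higher of all genes tested in Ctrl and 31.1% and 31.6% in cKO. In cKO against Ctrl sPre cells Vpreb1 (0.88 ± 0.21) and Igll1 (0.66 ± 0.18) were called higher, Vpreb3 lower (-0.68 ± 0.12) and Vpreb2 was not called (0.42 ± 0.28), beside 19.8% of all genes called higher and 14.9% lower.

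Markers of more mature B cells moved with the genotype in the sPre libraries. The summed level of 7 such genes (Ms4a1, Fcer2a, Cr2, Ighd, H2-Aa, H2-Ab1 and Ccr7) was 423 and 454 CPM in Ctrl and 1011 and 660.0 CPM in cKO sPre cells, and 5 of the 7 were called higher, beside 19.8% of all genes tested. Fcer2a, a defining marker, stood at 6.03 and 5.33 CPM in Ctrl and 83.8 and 29.9 CPM in cKO sPre libraries, the highest in cKO sPre replicate 1. In early LPre cells the 7 genes summed to 354 and 325 CPM in Ctrl and 533 and 423 CPM in cKO libraries, and 1 of the 7, H2-Aa (log2 fold change 0.88 ± 0.20), was called higher, beside 14.5% of all genes. Both sort gates were sIgM-, and the purity of the sorted cells is not given in the sources used here. The part of these markers in the values of Igkc and lambda was not tested. Without cKO sPre replicate 1, Igkc was still called higher and Iglc1, Iglc2, Iglc3 and Iglv1 lower, while Iglv2 was not called. The cKO sPre library then kept also had a higher summed level than both Ctrl libraries (660.0 against 423 and 454 CPM), though not for Ms4a1 (96.9 against 84.6 and 110.5 CPM) or Ccr7 (80.6 against 91.8 and 71.6 CPM). The 7 plasma cell markers summed to 323 and 289 CPM in Ctrl and 228 and 227 CPM in cKO sPre libraries, and to 318 and 272 against 216 and 211 CPM in early LPre. Jchain lay under 2.4 CPM and Tnfrsf17 under 0.4 CPM in each of the 8 libraries. Sdc1 lay between 30.2 and 90.6, Xbp1 between 45.7 and 71.3 and Mzb1 between 89.3 and 167 CPM. Sdc1 and Mzb1 were called lower in cKO cells of both stages and Derl3 higher in early LPre cells. Of all genes, 14.9% were called lower in sPre, and 16.9% lower and 14.5% higher in early LPre cells. The 5 T cell markers summed to at most 2.06 CPM.

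Other marker lists moved with the genotype as well. The 6 early large pre-B markers (Il7r, Igll1, Vpreb1, Spn, Mki67 and Myc) summed to 1348 and 1055 CPM in Ctrl and 1398 and 1779 CPM in cKO sPre libraries, where Igll1, Vpreb1 and Myc were called higher. In early LPre cells they summed to 5742 and 6151 CPM in Ctrl and 3924 and 4155 CPM in cKO, with Myc called higher and Spn lower. The 6 B-lineage markers (Cd79a, Cd79b, Pax5, Ebf1, Ptprc and Cd24a) summed to 5528 and 5814 CPM in Ctrl and 3904 and 3634 CPM in cKO sPre libraries, and to 4576 and 4296 against 3200.2 and 3191 CPM in early LPre. Cd79a, which carries Cre in the cKO mice, and Ebf1 were called lower in cKO cells of both stages, and Ptprc in early LPre cells. The 7 myeloid markers summed to 304 and 355 CPM in Ctrl and 210.5 and 243 CPM in cKO sPre libraries, and to 111 and 134 CPM in Ctrl and 50.05 and 55.6 CPM in cKO early LPre libraries, with Itgam called lower in both stages and Lyz2 in early LPre cells. The 4 erythroid markers in the table, of 5 listed, summed to 26.9 and 31.1 CPM in Ctrl and 15.8 and 9.21 CPM in cKO sPre libraries, and to 14.6 and 16.0 against 9.21 and 3.23 CPM in early LPre, with Hbb-bs called lower in both stages (-1.51 and -1.61). Of all genes tested, 19.8% were called higher and 14.9% lower in sPre cells, and 14.5% higher and 16.9% lower in early LPre cells. The genes named from these lists were chosen after their values were seen, and the part of these lists in the values of the light chain genes was not tested.

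By likeness of pattern, measured as the root mean square difference of centred log2 CPM over the 8 libraries among 9571 genes outside the immunoglobulin loci, the genes nearest to Igkc were Cd1d2 (0.18), Fam169b (0.21), Chd2 (0.21), Cd69 (0.24) and Gdpd3 (0.24). Cd1d2 stood at 3.54 and 3.78 CPM in Ctrl early LPre, 6.05 and 6.18 in cKO early LPre, 11.7 and 14.3 in Ctrl sPre and 17.7 and 23.6 CPM in cKO sPre libraries. The genes nearest to Iglc1 lay farther off, with Abca6 (1.40), Reln (1.42), Agbl1 (1.43), Col5a3 (1.53) and BE692007 (1.67) as the first 5.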

How the data were processed

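Reads trimmed by Trim Galore had been mapped by the authors to mm10 using HISAT2 (paired-end, unstranded), and they deposited featureCounts counts per gene, listed by Entrez identifier and not normalized. The annotation and the handling of multi-mapping reads and of read pairs that overlap several genes are not given in the sources used here. Names came from RefSeq (GRCm38.p6) for 25275 of 27179 genes. In R 4.3.3, edgeR 4.0.16 was used with TMM factors (0.862 to 1.09), its expression filter by group (17700 genes kept), 1 mean per group over the 8 libraries and a two-sided quasi-likelihood test. P-values were adjusted by Benjamini-Hochberg across the 17700 genes, with a threshold of 0.05. Totals were 68516857 to 160426338 counts. The common biological coefficient of variation was 0.174. Ratios of counts were compared by exact permutation (scipy 1.17.1), and intervals are 95% Wilson. The script was tested on simulated data. The alternatives were median-ratio factors, DESeq2 1.42.0, the likelihood-ratio test, no filter, a replicate block, library sizes without the 260 immunoglobulin genes, only the 4 libraries compared, near-identical copies summed, and each library left out. The 10 genes and the lists were chosen with earlier results of these data known. Named were the 10 genes, the other J and V segments, Upf1, Cd79a, part of the 19 regulators (Rag1, Rag2, Irf4, Irf8 and the 3 lowest in adjusted p), the surrogate light chain genes and the 5 genes nearest in pattern. B-lineage, early large pre-B, myeloid and erythroid marker lists were also summed. Some markers of these lists and of the sort gates are not reported here.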

Additional observations from a re-analysis of the deposited data

Results flagged for a closer look

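The genotype difference differed between the stages for 3 of the 10 genes, by the interaction of stage and genotype (edgeR quasi-likelihood test, sPre minus early LPre, log2 scale). For Iglv1 this difference was -3.42 (adjusted p = 0.000401), for Iglv2 -3.32 (adjusted p = 0.00963) and for Iglc2 -2.45 (adjusted p = 0.00387). Of all genes tested, 2.64% were called higher and 1.6% lower in this interaction. For each of the 3 genes as counted, cKO was higher than Ctrl in early LPre cells and lower in sPre cells. Since the interaction flagged these genes on the same values, their directions are not separate support. For Iglc2 the early LPre difference depends on the split of reads from Iglc3. With the pair summed, the early LPre log2 fold change was 0.43 and did not pass the test (adjusted p = 0.101, edgeR), the summed levels of the genotypes overlapped there, and the interaction was -1.27 (adjusted p = 0.0249, edgeR). Iglj2, the J gene beside Iglc2, was at 0.20 ± 0.31 in early LPre cells (adjusted p = 0.659, edgeR). Its interaction was -1.49 ± 0.35 and did not pass the test (adjusted p = 0.0517, edgeR). The early LPre values rest on 13 to 554 counts in a library. The part that read assignment between near-identical copies plays in them was not tested beyond summing the copies.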

How the results depend on the processing

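Each count of called genes was recomputed under up to 16 alternatives, where copies summed as a pair gave both genes the same value. It stayed within 1.5 times the reported count, except that without an expression filter 5 genes in place of 3 were called in the interaction, with Igkj1 (adjusted p = 0.0251) and Iglc1 (0.0214) added. Igkj1 also passed with DESeq2 (0.0363) and edgeR's likelihood-ratio test (0.0498), and Iglc1 without cKO early LPre replicate 1 (0.0175). Leaving out each library in turn gave 4 to 7 called genes for each of the genotype comparisons, 3 to 4 for the interaction and 10 for both stage comparisons. A library left alone in its group is then assumed to vary like the others. With a replicate block, 6, 5 and 3 genes were called in sPre cKO against Ctrl, early LPre cKO against Ctrl and the interaction, and 10 in each stage comparison. The sources used here do not say whether same-numbered libraries share a mouse. Their deviations from the group means correlated by 0.395 and 0.254 (between stages, Ctrl and cKO) and by 0.0858 and 0.155 (between genotypes, sPre and early LPre) over genes. For the ratio, the block leaves the means as they are by construction (-2.01, -0.66, -1.34, 6.57 and 5.22), so it tests nothing there. The differences within pairs were -2.04 and -1.99 for sPre and -0.74 and -0.59 for early LPre cKO against Ctrl, and 6.98 and 6.17 in Ctrl and 5.67 and 4.77 in cKO between stages.

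The lambda to kappa ratio on the log2 scale moved with the genes used. With Iglc1 alone it was 7.50 and 6.55 for sPre against early LPre in Ctrl and cKO, -2.87 and -1.92 for cKO against Ctrl in sPre and early LPre cells, and -2.39 within stage. In cKO early LPre cells this rests on 7 and 74 Iglc1 counts. An alternative chosen after seeing the data, leaving out replicate 1 or 2 of them, gave 4.94 or 8.17 in place of 6.55, -0.30 or -3.53 in place of -1.92, and -1.58 or -3.20 in place of -2.39. With Iglc2 and Iglc3 it was -1.62 for cKO against Ctrl in sPre cells. With Iglv1 and Iglv2 it was 3.12 for sPre against early LPre in cKO, 1.33 for cKO against Ctrl in early LPre cells, which is the other direction, and -0.27 within stage. With the kappa J genes it was 4.59, 0.60 (again the other direction) and -0.45 for these, and -1.49 for cKO against Ctrl in sPre cells. For the ratio with all lambda constant genes and Igkc, leaving out each library gave -2.14 to -1.89 in sPre, -1.01 to -0.31 in early LPre, -1.51 to -1.16 within stage, and 6.30 to 6.85 and 4.87 to 5.57 between stages. The cause of these shifts was not tested.

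Of 790 recomputed values for single genes, 761 kept direction and call, 12 newly passed the test, 8 no longer passed and 9 turned in direction. The last were uncalled values. Over the libraries left out, Igkj1 in sPre cKO against Ctrl ran from -0.10 (without Ctrl sPre replicate 1) to 0.20. In early LPre cells, cKO against Ctrl, Igkj2 ran from -0.54 to 0.026, Igkj4 from -0.35 to 0.25 and Igkj5 from -0.39 to 0.20, each upper value without Ctrl replicate 2, and Iglc1 ran from -2.52 to 0.61, with 0.28 without Ctrl replicate 2. Iglc3 was at 0.43 there when summed with Iglc2. In the interaction Iglc1 ran from -2.70 to 0.42 and Iglc3 from -0.56 to 0.27, each upper value without cKO early LPre replicate 2. With 2 libraries in a group no exact test can pass 0.05, and the lambda genes in early LPre cells rest on as few as 7 counts.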
